A study of Mus musculus with 3 samples.

Results

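The genes for the zinc finger transcription factors Gata2, Gata3, Gata4, Gata5 and Gata6, and for their Fog cofactors Zfpm1 and Zfpm2, were examined for Isl1 occupancy in embryonic stem cell (ESC)-derived cardiac progenitor cells (CPCs). These 7 genes were chosen by symbol. Of the 14082 distinct peaks in the list, which carry 9313 gene symbols, 9 were assigned to 6 of the 7 genes, and Gata6 had none under its own symbol. Isl1, a LIM-homeodomain factor of second heart field progenitors, was pulled down with the DSHB antibody clone 39.4D5 from crosslinked chromatin, and the recovered DNA was sequenced (ChIP-Seq). The cells were E14 Tg(Nkx2-5-EmGFP) ES cells, a single mouse line with a fluorescent reporter for the early cardiac gene Nkx2-5, differentiated with BMP4, Activin A, VEGF and FGF factors and collected on day 5. Isl1 ChIP was done in 2 replicates, beside 1 input of chromatin that was not pulled down; all 3 samples came from this line, and the labels name no mutant, treated or sorted group. A peak is a stretch that the peak caller marked as enriched in ChIP reads. The 1 list analysed joins both replicates and gives positions without reads or scores, so neither depth, nor peak strength, nor the spread between replicates is known, and the intervals given with shares cover counting error only.

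Gata factors bind the core sequence GATA through a pair of zinc fingers. Gata4, Gata5 and Gata6 act in the heart and endoderm, where Gata4 and Gata6 share much of their work with Nkx2-5 and T-box factors, whereas Gata2 and Gata3 are best known from blood progenitors, endothelium, T cells and neurons. The Fog proteins, Zfpm1 (Fog1) and Zfpm2 (Fog2), do not need to touch DNA themselves: they bind the amino-terminal finger of Gata factors and bring corepressors such as the NuRD complex and the CtBP proteins, and Fog2 together with Gata4 is needed for heart and coronary vessel development.

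The peaks differed in how often their sequence recurs in the genome, and mm9 windows from the centres of the 9 peaks, shortened at Gata5 and at the start of Zfpm1, are shown to set these sequences beside each other, each on the strand of its gene. The first 5 windows came from peaks whose central sequence was unique. They lay in the first coding exon of Gata4 (chr14:63859612-63859811), at the beginning of the Gata5 reading frame (chr2:180068948-180069074, starting with the annotated start codon), in Gata2 between coding exons (chr6:88149896-88150095), just before the Zfpm1 transcription start site (TSS; chr8:124805891-124806038) and far upstream of Zfpm1 (chr8:124754311-124754510).
Gata4 coding exon: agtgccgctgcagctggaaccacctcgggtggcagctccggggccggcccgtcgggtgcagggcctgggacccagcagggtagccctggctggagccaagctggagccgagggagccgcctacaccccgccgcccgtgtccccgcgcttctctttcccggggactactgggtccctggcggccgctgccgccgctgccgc
Gata5 reading frame: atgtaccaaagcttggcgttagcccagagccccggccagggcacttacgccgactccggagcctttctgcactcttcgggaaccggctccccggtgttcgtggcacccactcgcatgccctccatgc
Gata2 intron: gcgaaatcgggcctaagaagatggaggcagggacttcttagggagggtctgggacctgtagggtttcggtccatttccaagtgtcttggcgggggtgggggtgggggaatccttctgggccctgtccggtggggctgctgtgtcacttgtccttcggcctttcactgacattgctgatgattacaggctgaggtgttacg
Zfpm1 start: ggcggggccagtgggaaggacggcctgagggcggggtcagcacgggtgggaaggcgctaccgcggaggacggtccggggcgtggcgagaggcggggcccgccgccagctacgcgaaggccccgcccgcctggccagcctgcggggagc
Zfpm1 upstream: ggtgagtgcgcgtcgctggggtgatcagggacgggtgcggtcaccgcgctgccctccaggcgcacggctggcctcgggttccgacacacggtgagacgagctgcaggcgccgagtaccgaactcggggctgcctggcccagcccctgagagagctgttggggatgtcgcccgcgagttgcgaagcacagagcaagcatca

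The remaining 4 windows came from peaks whose central sequence has many copies, the distal peaks of Gata4 (chr14:63899280-63899479), Gata3 (chr2:9514646-9514845 and chr2:9538854-9539053) and Zfpm2 (chr15:40711205-40711404), on the minus strand for Gata4 and Gata3 and on the plus strand for Zfpm2. Capitals mark the longest perfect tandem repeat of a window, where it has at least 30 bases. In such a repeat the same short unit follows itself without a change. Other perfect repeats in a window stay in lower case. The Gata4 window was filled by 1 such repeat, both Gata3 windows were made largely of short purine or pyrimidine units, and the Zfpm2 window held no such repeat, so its copies in the genome cannot be seen from the letters alone.
Gata4 distal: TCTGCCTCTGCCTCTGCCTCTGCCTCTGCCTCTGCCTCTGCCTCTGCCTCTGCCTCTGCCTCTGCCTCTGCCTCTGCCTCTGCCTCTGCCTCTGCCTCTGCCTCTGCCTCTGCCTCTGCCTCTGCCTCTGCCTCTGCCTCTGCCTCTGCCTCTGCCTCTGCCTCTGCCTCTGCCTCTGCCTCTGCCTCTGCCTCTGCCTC
Gata3 distal 1: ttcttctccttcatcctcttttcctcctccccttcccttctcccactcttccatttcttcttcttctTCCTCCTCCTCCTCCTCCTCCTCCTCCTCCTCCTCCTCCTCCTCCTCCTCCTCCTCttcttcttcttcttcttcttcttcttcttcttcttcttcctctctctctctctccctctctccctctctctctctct
Gata3 distal 2: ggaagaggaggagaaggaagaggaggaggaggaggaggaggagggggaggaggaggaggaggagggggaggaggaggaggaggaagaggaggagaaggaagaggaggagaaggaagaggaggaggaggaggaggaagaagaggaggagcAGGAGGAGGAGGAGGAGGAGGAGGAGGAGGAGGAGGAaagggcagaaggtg
Zfpm2 intron: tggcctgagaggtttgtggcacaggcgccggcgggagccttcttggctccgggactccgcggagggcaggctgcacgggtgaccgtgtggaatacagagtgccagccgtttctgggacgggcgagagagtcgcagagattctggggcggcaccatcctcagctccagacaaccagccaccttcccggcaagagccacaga

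Copy number was measured as the median number of times that the 31-base words of the central 200 bp of a peak occur in the genome, on either strand. A median of 2 or more is called multi-copy. Of the 9 peaks, 5 were single-copy and 4 were multi-copy (44.4%, 95% Wilson interval 18.9% to 73.3%), beside 46.5% of all peaks. Gata2, Gata5 and Zfpm1 had single-copy peaks alone, Gata3 and Zfpm2 had multi-copy peaks alone, and Gata4 had 1 of each. The single-copy peaks had a median distance of 1337 bp from the TSS and the multi-copy peaks of 242995 bp, although the upstream Zfpm1 peak, single-copy, was farther from its TSS (51631 bp) than the multi-copy Gata4 peak (35271 bp). The same values over all peaks were 270 bp and 79852.5 bp.

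**Figure D1:**
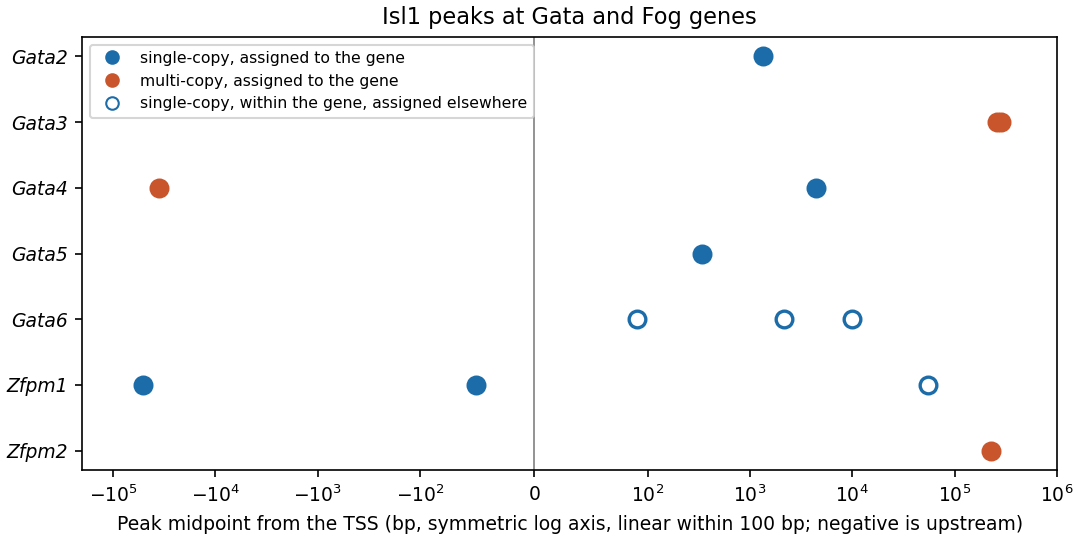
Position of the midpoint of each peak (points) relative to the TSS of its gene, in bp on a symmetric log axis, with upstream on the left. The 4 multi-copy peaks (orange) lie 35271 bp upstream of Gata4 and 224716 to 285482 bp downstream of the Zfpm2 and Gata3 TSSs, and the 3 open points at Gata6 and the 1 at Zfpm1 are peaks inside those genes that the list gives to other symbols.

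Peaks were assigned to 85.7% of the 7 genes (interval 48.7% to 97.4%), beside 37.5% of the 21883 protein-coding genes. Within 1 kb of the TSS a peak was assigned to Gata5 and Zfpm1 alone, 2 of 7 genes (28.6%, interval 8.22% to 64.1%), beside 23.2% of protein-coding genes. The interval contains the background, so a share above it was not detectable with 7 genes. At least 2 peaks were assigned to Gata3, Gata4 and Zfpm1, 3 of 7 genes, beside 10.6% of protein-coding genes. Both Gata3 peaks and 1 of the 2 Gata4 peaks were multi-copy, so among these genes only Zfpm1 had 2 single-copy peaks.

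A feature that most of these genes had in common was a peak over the beginning of the reading frame. The annotated start codon lay under a peak at Gata2, Gata4, Gata5, Gata6 and Zfpm1, 5 of the 7 genes, beside 17.4% of the 21641 protein-coding genes with an annotated start codon. The start codons of Gata3 and Zfpm2 were not under a peak. This feature was looked at after the positions of the peaks had been seen. The 17.4% also covers genes without any peak, since only 37.5% of protein-coding genes had an assigned one. The feature was not counted in the T-box or the Mef2, Srf, myocardin and Tead factors, so it cannot be called particular to these 7 genes. The distance between TSS and start codon separated these genes. It was 310 bp in Gata5 and 342 bp in Zfpm1, where 1 peak covered both. It was 897 bp in Gata2, 1563 bp in Gata6 and 4123 bp in Gata4, where the peak over the start codon did not reach the TSS.

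Gata4, a zinc finger factor required for heart tube formation, carried 1 peak of each class. The first peak covered chr14:63859339-63860083 (744 bp) on the minus-strand gene, with its midpoint 4397 bp downstream of the TSS at 63864108. It held the start codon, and 82.3% of its bases were coding, 13.2% untranslated (UTR) and 4.56% intronic. Over all peaks the mean coding share was 9.11% and the median 0%. Its central GC content was 75.5%, beside 41.5% and 39.5% in equally long windows 2 kb away on both sides. Single occurrences made up 98.9% of its 31-base words.

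The second Gata4 peak (chr14:63899073-63899686, 613 bp) lay 35271 bp upstream of that TSS. Upstream alternative starts of Gata4 are annotated, and from the farthest of them, at 63890529, the peak was 8850 bp away and outside the gene. A perfect tandem repeat of 409 bp with a unit of 6 bases, TCTGCC on the gene strand, made up 66.6% of the peak, and the central 31-base words occurred a median of 26612 times in the genome. Only 18 of the 14082 peaks had a perfect stretch at least this long, 8 of them of the same unit, and the longest in any peak was 2473 bp. In mm9, 72 of 1404 perfect stretches of this unit of at least 50 bp lay under a peak (5.13%, interval 4.09% to 6.41%). The share of mm9 under peaks (14082 stretches with a median width of 947 bp) was not computed, so no background share stands beside this one. Only 14.7% of the words of this peak occurred once in the genome. A read from inside the repeat can match its other copies equally well, and the list holds no mapping quality.

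Gata5, expressed early in cardiac and endocardial precursors, had a single wide peak (chr2:180068325-180069769, 1444 bp, wider than 85.1% of all peaks) centred 337 bp downstream of its TSS and 212 bp from the nearest annotated start. Coding bases made up 37.6% of it, UTR 22.8%, intron 14.3% and sequence outside the gene 25.3%. The peak covered all 300 bp of the RefSeq promoter of Gata5, defined as 250 bp before to 50 bp after the start. The antisense gene Gm14318 overlaps the same stretch, and a peak has no strand, so the list cannot say which of them it concerns. Central GC content was 62.5%, at the 23.7th percentile of all peaks, and the flanks held 61% and 47%.

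Gata6, which overlaps Gata4 in function during heart development, had no line under its own symbol, yet 3 peaks lay within the gene. All 3 were assigned to 1010001N08Rik, named Gata6os in RefSeq, a noncoding RNA that starts beside Gata6 on the opposite strand. The first (chromosome 18, 11052357 to 11052841, 484 bp) was centred 91 bp downstream of the Gata6 TSS at 11052508 and 34 bp from the TSS it was assigned to. The second (11054001 to 11055337, 1336 bp) was centred 2161 bp downstream, held the Gata6 start codon and was 83.5% coding. The third (11062211 to 11062594, 383 bp) lay 9894 bp downstream in an intron. All were single-copy, with central GC contents of 64%, 77.5% and 62%. In the third, a perfect tandem repeat of 37 bp made up 9.64% of the peak, and 45 other peaks shared at least 10 of its 31-base words. The third differed in its ratio of observed to expected CpG dinucleotides, 0.144, beside 0.779 and 0.879 in the other two. The Gata6 and Gata4 peaks over the start codon were thus alike in coding share, 83.5% and 82.3%, and in GC content, 77.5% and 75.5%.

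**Figure D2:**
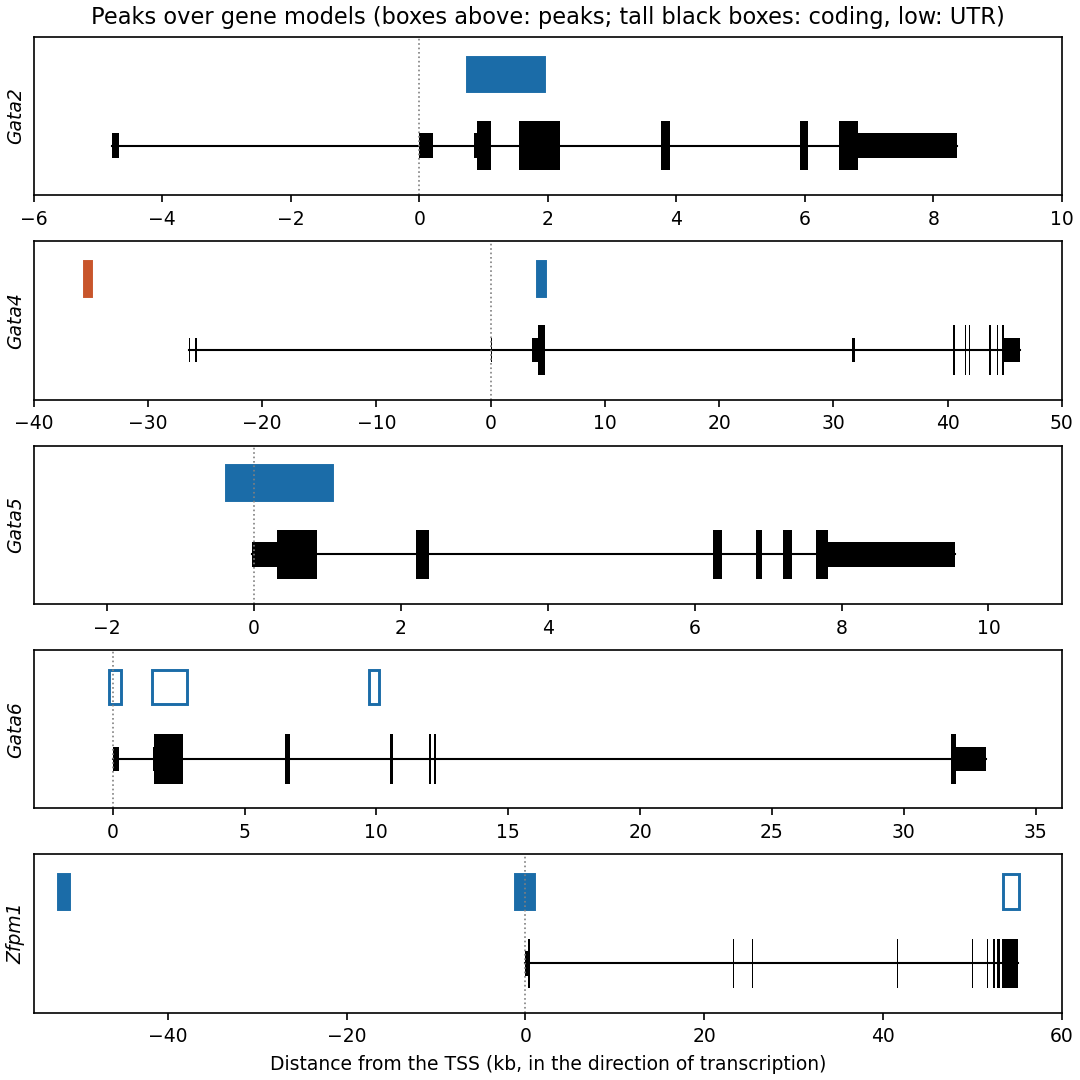
Peaks (boxes above each line) over the exons of Gata2, Gata4, Gata5, Gata6 and Zfpm1, in kb from the TSS (dotted line) in the direction of transcription. Blue is single-copy, orange multi-copy, and open boxes are peaks assigned to another symbol; in all 5 genes a peak covers the first coding block, 897 to 4123 bp from the TSS in Gata2, Gata6 and Gata4.

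Gata2, a factor of blood progenitors and endothelium, had 1 peak (chr6:88149396-88150594, 1198 bp) centred 1337 bp downstream of the TSS at 88148658. A second start is annotated farther upstream at 88143885, so the peak lay downstream of both, and 0 bp of either RefSeq promoter was under a peak. The midpoint fell in an intron, but 51.0% of the peak was coding, 45.4% intronic and 3.67% UTR. Its central GC content of 58% was below the 60% of 1 flank and above the 48.5% of the other, and its CpG ratio was 0.539, the lowest among the 5 single-copy peaks. The next peak on the chromosome, assigned to H1fx, was 218846 bp away.

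Gata3, best known from T cell and sympathetic neuron development, had 2 assigned peaks, both beyond the 3′ end of the gene and closer to the noncoding gene Gm13218. The first (chr2:9514369-9515122, 753 bp) lay 285482 bp and the second (chr2:9538730-9539176, 446 bp) 261274 bp downstream of the TSS at 9800227. The first lay inside Gm13218. Within 100 kb of the Gata3 TSS there were 0 peaks, and the nearest of any symbol was that of Taf3, 169827 bp upstream. Both peaks were centred on repeats. In the first the central words occurred a median of 176 times, the longest perfect stretch was 56 bp with the unit GAG, and GC content was 51%. In the second the values were 24.5 copies, 37 bp and 62%. Outside these cores the peaks were unique, since 79.4% and 55.4% of all their words occurred once. The unit AGG and its shifts recurred in the list: in 158 peaks the longest perfect tandem repeat was of this unit and at least 50 bp long. Of 3780 perfect stretches of this unit of at least 50 bp in mm9, 448 lay under a peak (11.9%, interval 10.9% to 12.9%). The 448 are stretches and not peaks. Here too the share of mm9 under peaks was not computed. A perfect tandem repeat of any unit of at least 50 bp was present in 2 of the 9 peaks, the distal Gata4 peak and the first Gata3 peak, beside 17% of all peaks.

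Zfpm1, the Fog cofactor of blood cell development, had the widest of the 9 peaks, 2129 bp at chr8:124804926-124807055, wider than 97.9% of all peaks. Its midpoint was 51 bp upstream of the TSS at 124806041, and it covered the whole RefSeq promoter and the start codon. Of its bases 52.3% lay outside the gene, 29.7% in an intron, 16.2% in UTR and 1.88% in coding sequence. Central GC content was 79%, the highest of the 9. A second assigned peak (chr8:124753787-124755033, 1246 bp) lay 51631 bp upstream, where the nearest annotated coding start was that of Gm22, 39059 bp away. Another peak, chr8:124859438-124861299 (1861 bp), covered most of the last coding exon of Zfpm1, with its midpoint 54327 bp downstream of its TSS, and was 88.7% coding. The list gave it to Trhr2, whose TSS was 24278 bp away, nearer than that of Zfpm1. All 3 were single-copy, with CpG ratios of 0.814, 0.862 and 0.840. The model Gm20388 runs through the whole locus and overlaps each of them.

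Zfpm2, the Fog cofactor of heart development, had 1 peak (chr15:40710820-40711789, 969 bp) in an intron of its 449551-bp gene. It lay 224716 bp downstream of the first TSS and 128011 bp from the nearest annotated start, at 40583293. No peak lay within 100 kb of the Zfpm2 TSS. The nearest to that TSS, assigned to Gm16294, lay 159078 bp upstream of it and 383794 bp from the Zfpm2 peak. The sequence of the Zfpm2 peak was a repeat of another kind than those of Gata3 and Gata4. The longest perfect tandem stretch was 12 bp, but the central words occurred a median of 775.5 times and only 12.8% of all words occurred once. Of its 843 distinct words up to 723 were found in a single other peak, and 531 other peaks shared at least 10. For the distal Gata4 peak 21 other peaks did so, and for the Gata3 peaks 426 and 113. Central GC content was 65.5%, beside 45% and 42% in the flanks, and the CpG ratio was 0.536, above those of the other 3 multi-copy peaks (0.0898 to 0.129). Every value for Zfpm2 thus rests on 1 multi-copy peak.

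**Figure D3:**
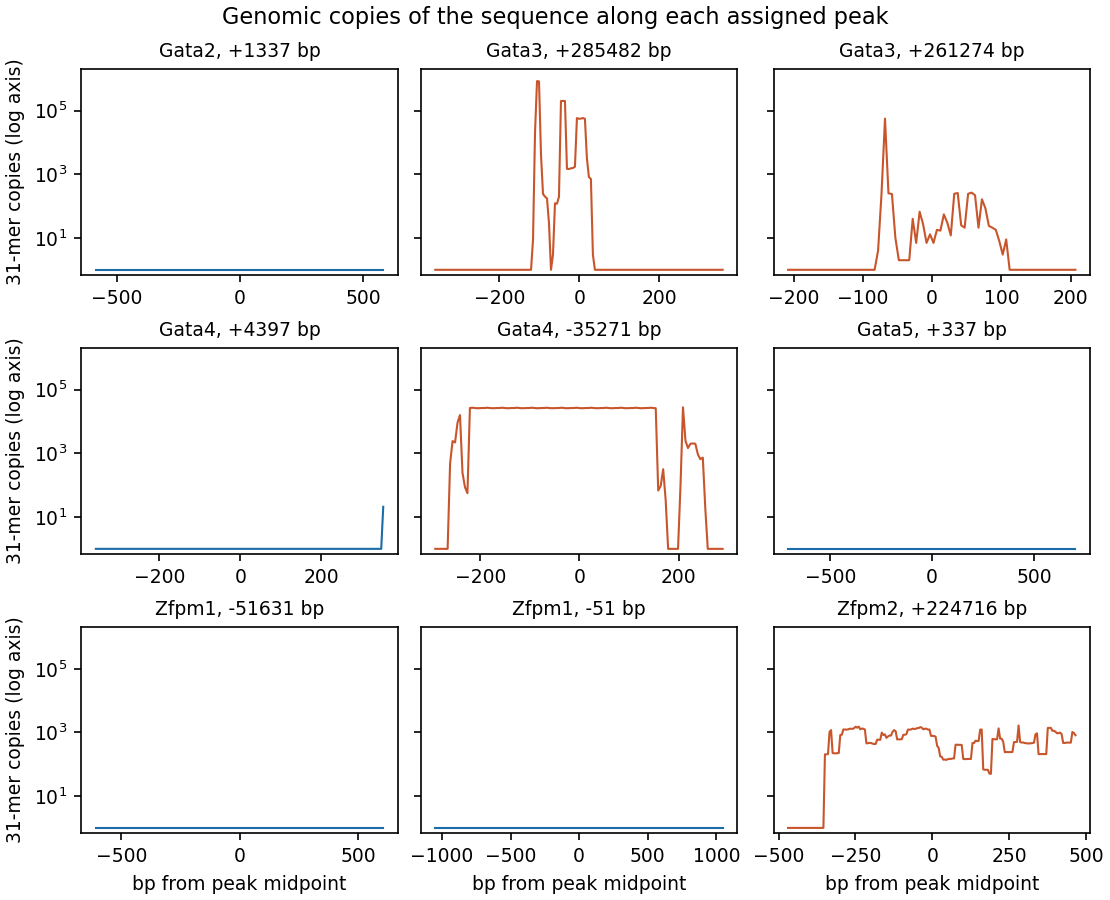
Genomic copies of each 31-base word (log axis) along the 9 assigned peaks, in bp from the peak midpoint; titles give the distance from the TSS. The 5 single-copy peaks (blue) stay at 1 copy almost throughout, the Gata4 distal peak is flat near 26612 copies over its tandem repeat, Gata3 is repeated in the core alone, and Zfpm2 over nearly its whole width.

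Among themselves the 9 peaks ranged from 446 bp to 2129 bp in width, with a median of 969 bp beside 947 bp for all peaks. The single-copy peaks had a median of 1246 bp (n = 5) and the multi-copy peaks of 683 bp (n = 4). Central GC content was 65.4% ± 8.54 (SD over 9 peaks), beside 66.6% ± 9.26 over all peaks, and 46.4% ± 8.01 in the 18 flanking windows of the 9 peaks. The median CpG ratio was 0.797 for the single-copy peaks, beside 0.786 for all single-copy peaks, and 0.125 for the multi-copy peaks, beside 0.472 for all multi-copy peaks. At least 50% of the bases were coding in 4 of the 13 peaks assigned to or lying within the 7 genes (Gata2, Gata4, Gata6 and the last exon of Zfpm1), beside 6.16% of all peaks. The Gata6 and last-exon Zfpm1 peaks were included only because they overlap these genes. That choice favours coding sequence, so the share of all peaks is not a like background.

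**Figure D4:**
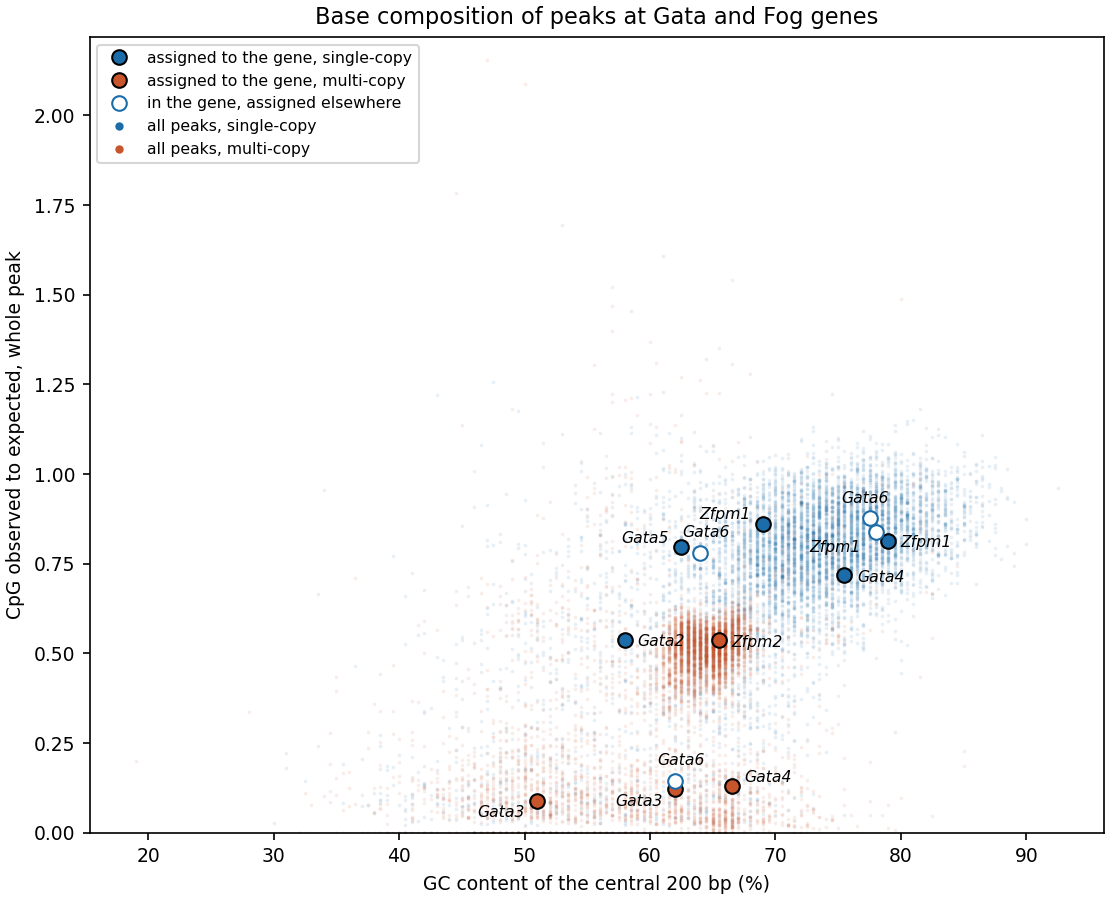
GC content of the central 200 bp (x, %) against the ratio of observed to expected CpG over the whole peak (y) for all 14082 peaks (small points) and the peaks at Gata and Fog genes (large points, open where assigned to another symbol). The 5 single-copy peaks lie between 0.539 and 0.862 on the CpG axis, Zfpm2 lies among the multi-copy peaks near 0.536, and Gata3 and the distal Gata4 peak lie at 0.129 or lower.

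The genes encode GATA-binding factors and their cofactors, and Isl1 itself binds LIM-homeodomain sites rich in TAAT, so both kinds of letters were sought on both strands. The GATA search was for any of 4 strings, AGATAA or AGATAG, and TGATAA or TGATAG, which can share bases with each other. None occurred in the central 200 bp of the 9 peaks, beside 4.22% of all peaks. Over whole peaks 3 of 9 held at least 1, beside 45.7% of all peaks. The density was 0.838 strings per kb, from 8 strings, beside 0.698 per kb over all peaks. In the single-copy peaks it was 0.740 per kb, beside 0.436 over all single-copy peaks, and its 5 strings all lay in 1 peak. In the multi-copy peaks it was 1.08 per kb, beside 1.01 over all multi-copy peaks. The distal Gata4 peak held 1, 302 bp from its midpoint, Zfpm2 held 2, at 228 and 325 bp, and the Zfpm1 promoter peak held 5. Those of Zfpm1 lay 896 and 432 bp upstream and 734, 773 and 813 bp downstream of its TSS. The downstream 3 stood together within the 145 bp shown here, in which capitals mark the strings.
Zfpm1 downstream of the TSS, chr8:124806742-124806886: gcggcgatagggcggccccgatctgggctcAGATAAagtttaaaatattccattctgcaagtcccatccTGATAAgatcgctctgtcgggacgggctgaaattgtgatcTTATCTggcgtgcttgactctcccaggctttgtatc

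The LIM-homeodomain strings CTAATTG and CTAATGG occurred in 0 of the 9 central windows, beside 0.412% of all peaks, and in 0 of the 9 whole peaks, beside 5%. A background of this size would give few or none among 9 peaks. The shorter core TAAT occurred 14 times in the 9 peaks, 1.47 per kb beside 2.18 per kb over all peaks, and 4 of these were in single-copy peaks (0.592 per kb beside 1.25 per kb for all single-copy peaks). Of the promoters in the RefSeq table, which held Gata2 with 2 starts, Gata3, Gata5 and Zfpm1, 1 had a GATA string, that of Gata3. Among all 32851 promoters of this length 29.8% had a GATA string and 3.94% a LIM-homeodomain string.

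Genes that act with Gata and Fog factors were read in 4 lists with 46 genes in all, of which 31 had an assigned peak. The shares to set beside each list are the 37.5% of all protein-coding genes with a peak, the 23.2% with one within 1 kb and the 46.5% of all peaks that were multi-copy. Of the 9 other genes with GATA-type zinc fingers, 6 had a peak (66.7%, interval 35.4% to 87.9%) and 5 had one within 1 kb. These were at Gatad2a (93 bp), a NuRD subunit, Rere (149 bp upstream), a nuclear receptor coregulator, Mta3 (159 bp), another NuRD subunit, Gatad1 (184 bp) and Mta1. Trps1, a repressor that binds GATA sites, had 3 peaks that were all multi-copy, the nearest 146904 bp away. Gatad2b, Mta2 and Zglp1 had none. The list had 10 peaks, 4 of them multi-copy.

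Of the 11 corepressors bound by Fog proteins, 9 had a peak (81.8%, interval 52.3% to 94.9%), beside 37.5% of protein-coding genes, and 7 had one within 1 kb (63.6%, interval 35.4% to 84.8%), beside 23.2%. The nearest were Ctbp1 (102 bp), which binds a short motif of Fog proteins, the histone-binding NuRD subunit Rbbp4 (126 bp), the deacetylase Hdac2 (141 bp) and Rbbp7 (209 bp). Ctbp2 had a peak of 3236 bp centred 399 bp from its TSS. Chd4, the NuRD ATPase, had a multi-copy peak alone, 2892 bp upstream, and Hdac1 and Mbd3 had none.

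Of the 18 partners of Gata factors, 15 had a peak (83.3%, interval 60.8% to 94.2%), beside 37.5% of protein-coding genes, and 13 had one within 1 kb (72.2%, interval 49.1% to 87.5%), beside 23.2%. Smarcd3, the Baf60c subunit of cardiac SWI/SNF complexes, was marked at its TSS (0 bp). The adaptor Ldb1 (28 bp), which bridges LIM and Gata complexes, the endocardial factor Nfatc1 (54 bp upstream) and the signalling factor Smad4 (143 bp) followed. Nkx2-5, whose reporter the line carries, had 2 peaks, the nearest 346 bp from its TSS, and Nr2f2, a partner of Fog2, had 5. Mef2c had a multi-copy peak alone, 317029 bp upstream. Myocd, Tbx20 and Tbx5 had none. Of the 26 peaks of this list 3 were multi-copy (11.5%, interval 4.00% to 29.0%), beside 46.5% of all peaks.

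The 8 cardiac target genes of Gata4 had the lowest share of the 4 lists. Only Slc8a1, the sodium-calcium exchanger, had peaks (12.5%, interval 2.24% to 47.1%), and its 3 peaks were all multi-copy, the nearest 21733 bp from its TSS. The contractile genes Actc1, Myh6, Myl7, Tnnc1 and Tnni3 and the natriuretic peptide genes Nppa and Nppb had none. The interval contains the background of 37.5%, so a lower share was not detectable with 8 genes.

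The T-box and the Mef2, Srf, myocardin and Tead factors were read in the same way as the families most like the Gata genes, beside the same 37.5% of protein-coding genes with a peak and 23.2% with one within 1 kb. Of 16 T-box genes 9 had a peak (56.3%, interval 33.2% to 76.9%) and 6 had one within 1 kb, with Tbx15 at 55 bp, Tbx2 at 139 bp, Tbx1 at 191 bp and Tbx3 at 364 bp upstream. T, Tbx10, Tbx19 and Tbx20 were among those without. Of the 12 genes of the second family 10 had a peak (83.3%, interval 55.2% to 95.3%) and 9 had one within 1 kb, with Mef2a at 1 bp and Tead3 at 15 bp upstream of the TSS, Mkl2 at 106 bp and Mkl1 at 182 bp downstream. Mef2b and Myocd had none. The shares within 1 kb were 28.6% for the Gata and Fog genes, 37.5% for T-box genes and 75% for the second family (intervals 8.22% to 64.1%, 18.5% to 61.4% and 46.8% to 91.1%). These intervals overlap, and the differences were not tested.

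**Figure D5:**
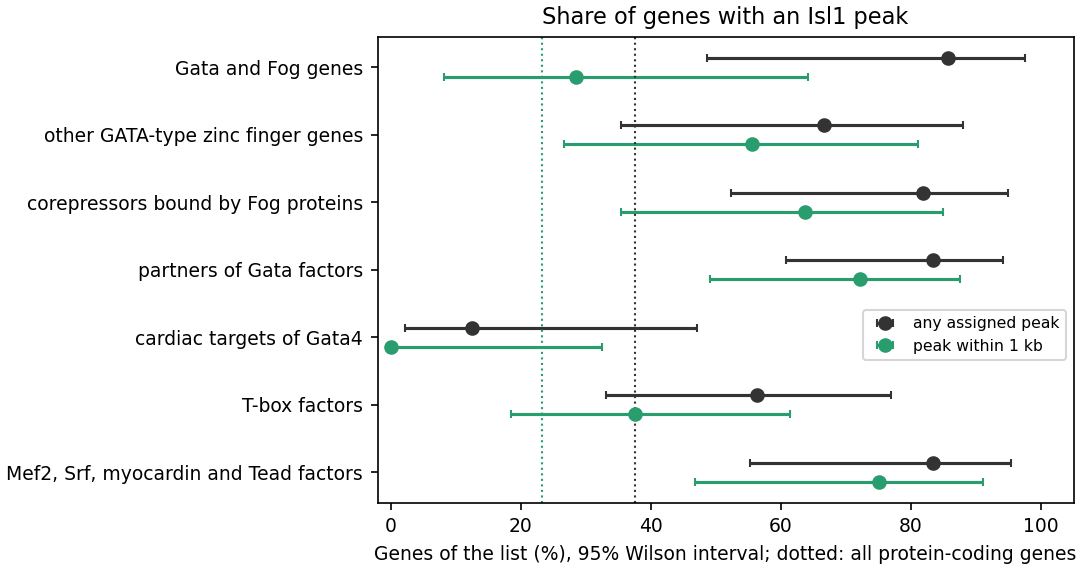
Share of genes in each list (x, %) with any assigned peak (black) and with one within 1 kb of the TSS (green), with 95% Wilson intervals; dotted lines mark all protein-coding genes, at 37.5% and 23.2%. The cardiac targets of Gata4 lie lowest, at 12.5% and 0%, and the partners of Gata factors highest for peaks within 1 kb among the 4 pathway lists, at 72.2%.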

How the data were processed

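The ChIP-Seq peak list was deposited by the authors as 1 table for both replicates, with positions in mm9, the signed distance in bp to the TSS, and a gene symbol, but no score. Per the study's methods, alignment used Bowtie2 and duplicate removal used Picard 1.136. MACS called the peaks, those in blacklisted regions were dropped, bedtools 2.15 kept what the replicates had in common, and each peak was given to its closest TSS. How reads that fit several places were placed bears on multi-copy peaks. Whether the call used the input is not given in the sources used here. Depth per sample is unknown.

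Identical lines (83 of 14165) were dropped and peaks were kept by symbol. Starts may count from 0 or 1, so they are uncertain by 1 bp. Sequence and gene models came from the NCBIM37 assembly (the mm9 sequence) with GENCODE, names and promoters from RefSeq (GRCm38.p6, no coordinates of it used). Promoters of Gata4, Gata6 and Zfpm2 are not analysed here. Words of 31 bases were counted over the genome in Python 3.11.15 with numba 0.67.0; intervals used scipy 1.17.1. The counting and the string search were tested on simulated sequence.

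The genes and lists were chosen with earlier results of these data known, and no test was made over them. Every member was named with each peak, and in each list up to 4 genes with the nearest peak and up to 4 without one in alphabetical order. Mta1, Trps1, Ctbp2, Chd4, Nkx2-5, Nr2f2, Mef2c, Tnnc1, Tnni3 and Nppb were named after their values were seen. Tandem repeats, shared words, start codons, coding shares and peaks inside these genes that carry other symbols were likewise examined after the positions had been seen. Alternatives were a minimum width of 500 bp, merging within 1000 bp, kept repeated lines, another assignment, other distances and windows, and another copy limit.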

Additional observations from a re-analysis of the deposited data

How the results depend on the processing

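The 9 results (members with a peak, number of peaks, members within 1 kb, width, GC content, single-copy peaks, both string counts and listed genes with a peak) were recomputed under the alternatives that apply to each, which gave 40 values, and 35 of these stayed within 1.5 times or 1 SD of the reported one. Some of these 35 values could not have moved. No peak of the 7 genes had a repeated line, and the closest other peak to any of the 9 was 24208 bp away, beyond the merging limit. A string count of 0 also cannot rise in fewer peaks or a shorter window. The other 5 values moved. Giving each peak to the closest protein-coding TSS of the annotation raised the peaks assigned to the 7 genes from 9 to 17 and their single-copy peaks from 5 to 9. With it Gata6 gained 3 peaks, Gata3 had 5, Zfpm2 had 3, Gata5 had 2 and Zfpm1 lost its upstream peak, so that all 7 genes had one. This setting leaves out noncoding genes and also uses other annotated starts, and which of these moved the counts was not tested. Single-copy peaks alone left 5. Widening the distance to 10 kb raised the members with a near peak from 2 to 4, and searching whole peaks raised those with a GATA string from 0 to 3. Some values within 1.5 times still differed. Single-copy peaks alone left 4 of the 7 genes with a peak instead of 6. Copy number taken over the whole peak made 7 of the 9 peaks single-copy instead of 5. No paired analysis was possible because the 1 list joins both replicates, and leaving out either replicate could not be done for the same reason. The 9 peaks come without scores, reads or depth and so carry no measure of strength.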

Other observations

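Gata6 was not alone in losing its promoter peak to a neighbour's symbol. Of 5242 protein-coding genes with a peak midpoint within 1 kb of an annotated coding start, 167 (3.19%, 95% Wilson interval 2.74% to 3.70%) had no peak under their own symbol. The 170 peaks concerned were assigned to a noncoding or unmatched symbol in 80 cases and to another coding gene in 90. This count was made after the Gata6 peaks had been seen.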
